A study of Mus musculus with 11 samples.

Results

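Crystallins are the abundant soluble proteins of the eye lens, and the 9 crystallin genes named for this description were Cryaa, Cryab, Cryba1, Cryba2, Cryba4, Crybb1, Crybb2, Crybb3 and Crygs. They were chosen by name, and 6 of the 9 had a row among the 25311 genes of the UMI count table. Cryba2, Crybb2 and Crygs were not analysed here. The cells came from the retinas of 11 C57BL/6J mice at postnatal day 10 (P10), dissociated with papain and captured in droplets by inDrop, where a random tag on each captured transcript (a UMI) lets copies of it be counted once. The groups were control mice injected with PBS (n = 3), Phase I ROP mice made hyperglycemic with streptozotocin, STZ (n = 3), and STZ mice whose nursing dams received an ω-3 diet (n = 2) or an ω-6 diet (n = 3). Streptozotocin kills insulin-producing beta cells, and Phase I ROP stands for the early, vessel-poor phase of retinopathy of prematurity. The study calls control and STZ mice littermates, and likewise the ω-3 and ω-6 mice, each diet having a cage of its own. It also kept STZ litters smaller than litters without STZ, and each diet was fed to nursing dams. Litter may therefore go with treatment and with diet in both comparisons. The sample descriptions of the diet mice alone carry the word JAX, and those of 2 ω-6 mice do not name STZ although their treatment field does, so feed, litter and origin cannot be told apart between the diet mice and the STZ mice. Dissection was meant to remove the front of the eye, which holds the lens, and the pigment epithelium.

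The α-crystallins, Cryaa and Cryab, are small heat shock proteins that hold unfolding proteins in solution, and Cryab is also known from glia and muscle. The β- and γ-crystallins form a separate family of packed structural proteins, of which Cryba1, Cryba2 and Cryba4 are acidic and Crybb1, Crybb2 and Crybb3 basic. In the lens their genes are switched on by transcription factors of the large Maf family, which bind a recognition element built around the letters TGCTGA. Crystallin RNA in a retinal preparation can come from retinal cells or from lens material carried over in dissection.

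The 6 genes differed widely in how much was counted. Of 45848858 UMIs in 20033 kept cells, Cryab had 2899 UMIs in 1002 cells, Crybb3 had 397 in 137 cells, Cryba1 had 91 in 81, Crybb1 had 55 in 40, and Cryaa and Cryba4 had 27 each, in 25 and 18 cells. At least 1 crystallin UMI was found in 1248 cells, 6.23% of all, and UMIs of 2 or more of the genes in 50 cells. In no cell did crystallins make up more than 1.35% of UMIs.

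In GRCm38 (GENCODE M21 coordinates) Cryab is on chromosome 9 from 50751325 to 50756636, plus strand, where it overlaps Hspb2 on the other strand by 1030 bases. Hspb2 had no row to compare with it. Cryaa is on chromosome 17 (31677807 to 31681733, plus strand) and Cryba1 on chromosome 11 (77718615 to 77725283, minus strand). The other 3 genes counted are on chromosome 5. Cryba4 (112246493 to 112252518, minus strand) and Crybb1 (112255815 to 112269585, plus strand) are neighbors that are read away from each other, with 3297 bases between their starts. Crybb3 (113075839 to 113081584, minus strand) has Crybb2 as its neighbor, 5722 bases from its end. The 250 bases before the start of Crybb1, Cryba4 and Crybb3 are shown because the first pair shared a cell class and the last was found in cells rich in Maf RNA. They are from RefSeq on GRCm38.p6, written 5′ to 3′ on the strand of the gene, with TGCTGA or its reverse complement TCAGCA in capitals.
Crybb1 (chr5:112255570-112255819, plus strand): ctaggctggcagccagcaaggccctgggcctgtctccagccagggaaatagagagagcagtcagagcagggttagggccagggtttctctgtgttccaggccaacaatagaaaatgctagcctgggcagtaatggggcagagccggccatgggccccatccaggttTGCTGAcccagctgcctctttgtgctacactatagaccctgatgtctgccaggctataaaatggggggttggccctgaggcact
Cryba4 (chr5:112252519-112252768, minus strand): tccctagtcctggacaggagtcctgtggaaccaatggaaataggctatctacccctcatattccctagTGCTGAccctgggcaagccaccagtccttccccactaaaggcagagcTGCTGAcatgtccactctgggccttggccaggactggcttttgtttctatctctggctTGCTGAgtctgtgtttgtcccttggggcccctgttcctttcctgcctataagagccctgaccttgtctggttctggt
Crybb3 (chr5:113081585-113081834, minus strand): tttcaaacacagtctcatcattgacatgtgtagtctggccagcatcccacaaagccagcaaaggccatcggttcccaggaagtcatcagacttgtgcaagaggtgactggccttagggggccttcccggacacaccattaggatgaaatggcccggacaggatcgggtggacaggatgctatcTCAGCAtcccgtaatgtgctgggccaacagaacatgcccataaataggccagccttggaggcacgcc
Both strands were searched for these 6 letters, with overlaps allowed. Crybb1 held 1 match, Cryba4 held 3 and Crybb3 held 1, on the reverse strand. Of 32851 mouse promoters of the same length, 16.1% held at least 1 match and 0.146%, 48 promoters, held 3 or more. Of the 8 crystallins with a promoter in the table, Crybb2 held none, and Cryab is not in it.

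Cells were clustered, and clusters were named from canonical markers. The classes held 9967 rods, 3596 bipolar cells, 3287 amacrine cells, 1425 Müller glia, 1126 cones, and from 31 to 113 cells each of horizontal cells, astrocytes, microglia, pigment epithelium, retinal ganglion cells and endothelial cells, with 211 cells left unnamed. Totals ran from 2563064 to 6516478 UMIs per mouse. Cryab, Cryba4 and Crybb3 were among the variable genes that formed the clusters. So were Crym, Crybg1, Lgsn, Maf, Pax6, Prox1 and Six3 of the other genes named below. Levels across classes are therefore a description without a test. Scrublet, a doublet caller, marked 0.359% of cells, too few to have worked, so no cell was removed as a doublet. A clustering from which crystallin and other lens genes were left out put 19801 of the 20033 cells into the same class. Barcodes that occurred in more than 1 library numbered 1157 and covered 2352 cells.

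Control libraries stood apart in RNAs that can vary with handling and RNA content. The immediate early gene Fosb was at 0.390 to 0.890 UMIs per 1000000 UMIs (CPM) in control mice and at 116 to 149 CPM in STZ mice. The mitochondrial ribosomal RNA mt-Rnr2 was at 28195 to 41188 CPM against 4279 to 7779, and the nuclear RNA Rn7sk at 193 to 290.2 against 1.15 to 9.38. These differences run along the comparison of STZ with control, so treatment and handling cannot be told apart in them. Their part in the crystallin results was not tested.

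Cryab, the α-crystallin of glia, was above all a transcript of Müller glia. This class held 2541 of its UMIs, 87.7%, at a pooled level of 644 CPM (95% Poisson interval 619 to 670), and in the 11 mice the level ran from 484 to 938 CPM. Cryab was seen in 796 of 1425 Müller glia (55.9%), with a median of 2 UMIs in those cells, 5 or more UMIs in 171 cells and 21 at most. Thinned to 500 UMIs per cell, the share was 24.2% in Müller glia and 0.259% in rods. Before thinning the rod share was 0.662%, with a median depth of 1054 UMIs per rod and 2082 per Müller glia.

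Next in order were the astrocytes, at 362 CPM (295 to 440; 101 UMIs in 30 of 47 cells), and the pigment epithelium, at 328 CPM (227 to 458; 34 UMIs in 20 of 75 cells). Astrocytes are the glia of the nerve fiber layer, and this small cluster was led by Igf2, H19 and Pdgfra together with the astrocyte markers S100b and Gfap. Müller glia were above astrocytes in 8 of the 10 mice that had both, and astrocytes were above pigment epithelium in 7 of 10, so this order is not one that every mouse showed. The endothelial cluster followed at 55.7 CPM (39.4 to 76.4), below the pigment epithelium in 7 of 11 mice.

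Within that vascular cluster most Cryab UMIs lay in cells with a pericyte marker. In 21 cells with a UMI of Pdgfrb, Kcnj8 or Cspg4 and none of the endothelial genes Pecam1, Cldn5, Cdh5 or Kdr, it had 17 UMIs (275 CPM, 160.4 to 441). The 17 cells with both kinds of marker held 15 UMIs, at 82.4 CPM (46.1 to 136). The 70 cells with endothelial markers alone held 2 UMIs, 4.67 CPM (0.565 to 16.9). The 5 cells with neither kind of marker held 4 UMIs, at 384 CPM (105 to 983). These subsets were formed after the values of the cluster were seen.

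Neurons were low in Cryab. Cones were at 9.75 CPM (6.86 to 13.4) and rods at 6.78 CPM (5.44 to 8.35), with cones higher in 8 of 11 mice. Bipolar cells were at 2.90 CPM (1.90 to 4.26), amacrine cells at 1.64 CPM (1.02 to 2.51), and the 96 ganglion cells held 1 UMI. Microglia and horizontal cells also held 1 UMI each.

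Crym, a thyroid hormone binding protein named for its lens role in marsupials, was a second RNA high in Müller glia. It reached 3557 CPM (3498 to 3616) in Müller glia. Of the UMIs of Cryab and Crym together, Cryab made up 15.3% in Müller glia (exact binomial interval 14.8 to 15.9), but 94.4% in astrocytes (88.2 to 97.9), 75.6% in pigment epithelium (60.5 to 87.1) and 77.6% in the endothelial cluster (63.4 to 88.2). In rods the share was 29.9% (24.8 to 35.5), in cones 29.8% (21.96 to 38.7), in bipolar cells 7.67% (5.07 to 11.04) and in amacrine cells 8.50% (5.34 to 12.7). The classes therefore did not hold these RNAs in 1 ratio. Intervals here cover counting error only.

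**Figure D1:**
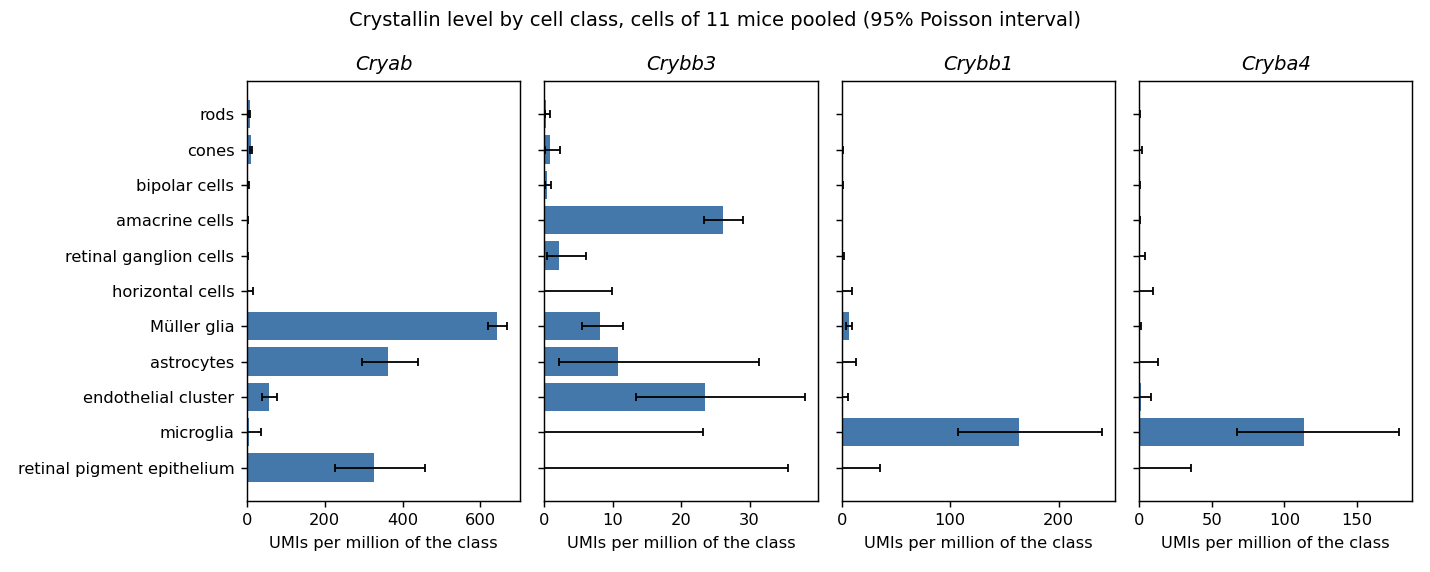
Pooled level of 4 crystallins (CPM, horizontal axis, starting at 0 and scaled for each gene) in 11 cell classes; bars are the level over the cells of 11 mice and lines the 95% Poisson interval. Cryab is highest in Müller glia at 644 CPM, Crybb3 in amacrine cells at 26.1 CPM, and Crybb1 and Cryba4 in microglia at 164 and 113 CPM. For Crybb3 the endothelial cluster, at 23.4 CPM, has an interval that includes the level of amacrine cells.

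Most UMIs of Crybb3, a basic β-crystallin, were in a small set of amacrine cells, the inhibitory interneurons of the inner retina. Of its 397 UMIs, 329 (82.9%) were in 1 amacrine cluster of 1337 cells, led by Cartpt, C1ql1 and Cbln2 and holding the GABA-synthesis gene Gad1 among its 10 leading genes. Its level there was 49.9 CPM. The other 4 amacrine clusters, with 1950 cells, held 4 UMIs, 0.646 CPM. Most cells of the cluster had none. Crybb3 was found in 94 of its cells (7.03%), at 1 UMI in 35 cells, at 2 or more in 59, and at up to 21 UMIs in a cell. In rods 0.0401% of cells had a UMI.

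The cells with Crybb3 were also those with Maf, which encodes a large Maf transcription factor. In the 59 cells with 2 or more Crybb3 UMIs Maf was at 2268 CPM and was detected in 98.3% of cells, against 128 CPM and 11.3% in the 1243 cells of the cluster with none. The level was higher in the Crybb3 cells in 11 of 11 mice. Counted from the other side, 75 of 119 cells with 5 or more Maf UMIs had Crybb3 (63.0%), and 5 of the 1107 cells without Maf did (0.452%). The median depth was 6583 and 3862 UMIs per cell, and after thinning to 500 UMIs the shares were 13.2% and 0.0840%. The plot of Crybb3 against Maf shows the same cells in each of the 4 groups. Both limits, 2 Crybb3 and 5 Maf UMIs, were set after the values were seen.

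Other genes went with Maf in these cells. The neurotrophin receptor Ngfr was at 378 against 27.5 CPM, the protocadherin Pcdh7 at 756 against 103, the transcription factor Prdm8 at 824 against 120, the matrix protease Mmp9 at 225 against 23.4, the spindle protein Spag5 at 12.8 times the level of the other cells, and the acetylcholine receptor subunit Chrna2 at 134 against 12.3. All 6 were higher in the Crybb3 cells in 11 of 11 mice. The muscarinic receptor Chrm1 was higher in 9 and the endothelin receptor Ednrb in 8 of 11. Pcp2, known from rod bipolar cells, was also among the 10 genes with the largest ratio (103 against 7.42 CPM), and was higher in only 2 of 11 mice. These genes were picked by their ratio in the same cells, after the values were seen, and carry no test.

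**Figure D2:**
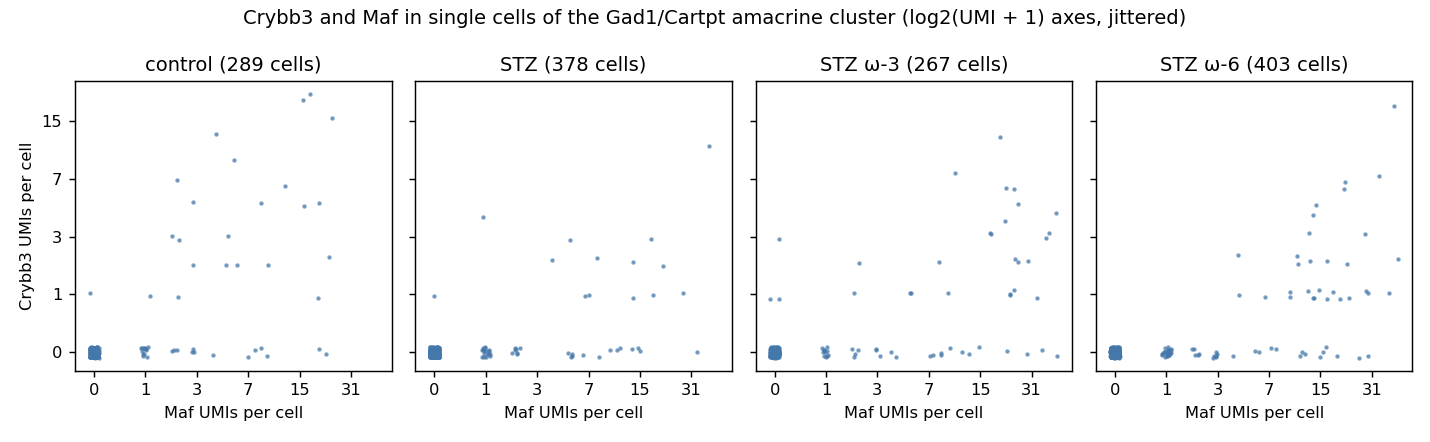
UMIs of Maf (horizontal) and Crybb3 (vertical) in each cell of the amacrine cluster with Gad1 and Cartpt, 1 panel per group, on log2(UMI + 1) axes with random jitter. Cells with Crybb3 lie mainly at 5 or more Maf UMIs in every group, and control cells reach 21 Crybb3 UMIs where STZ cells reach 11.

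Fewer Crybb3 UMIs were found in glia and vessels, though the level in vessels was near that of the amacrine class. Müller glia held 32 UMIs in 16 cells, 8.11 CPM (5.55 to 11.4). Of these cells 14 had the Müller marker Slc1a3, 6 had Maf and none had Gad1. The endothelial cluster held 16 UMIs in 10 cells, 23.4 CPM (13.4 to 38.1). A UMI was found in 8.85% of its cells and in 2.98% of all amacrine cells. After thinning to 500 UMIs the shares were 0.709% and 0.699%. The 70 cells with endothelial markers alone held 14 of the 16 UMIs, from 7 mice, at 32.7 CPM (17.9 to 54.8). The 21 cells with pericyte markers alone held none (upper Poisson bound 59.7 CPM), too few UMIs in all to order these subsets.

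Crybb1 and Cryba4, the neighbors on chromosome 5, were both highest in microglia, the resident phagocytes of the retina. Microglia were 59 cells, 0.295% of all, with 3 to 10 cells per mouse. They held 26 of 55 Crybb1 UMIs (47.3%), at 164 CPM (107 to 239.9), and 18 of 27 Cryba4 UMIs (66.7%), at 113 CPM (67.2 to 179). Crybb1 was seen in 14 of the cells, from 9 mice, Cryba4 in 9 cells from 6 mice, and both in 5 cells. Maf was at 422 CPM in the same class. No Crybb1 UMI was found in 9967 rods, which allows up to 0.0301% of cells with a captured UMI and sets no limit on cells that use the gene, and 1 Cryba4 UMI was.

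Müller glia held 26 further Crybb1 UMIs, at 6.59 CPM (4.30 to 9.66), in 23 cells of 9 mice. None of the 23 cells had a UMI of the microglial genes C1qa or C1qb, none had Cryba4, and their median Slc1a3 count was 11. Their median depth of 4038 UMIs was above the 2082 of all Müller glia. Cryba4 had 1 UMI in Müller glia. The neighbors thus occurred together in microglia, and Crybb1 without Cryba4 in Müller glia.

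Cryaa and Cryba1 had no class of their own. Cryaa, the α-crystallin typical of lens, had its 27 UMIs in 11 of 25 clusters, 16 of them in rods at 1.23 CPM (0.704 to 2.00). It was uneven across mice. STZ replicate 1 held 9 UMIs and ω-3 replicate 1 held 7, and 14 of the 25 cells were from these mice. The others held 0 to 4 UMIs each. Cryba1, an acidic β-crystallin known from lens and from astrocytes, was spread over 18 clusters and counted in all 11 mice. It was at 2.54 CPM (1.75 to 3.57) in rods, 2.68 (1.72 to 3.99) in bipolar cells, 1.56 (0.956 to 2.42) in amacrine cells and 1.01 (0.276 to 2.60) in Müller glia, and was not found in 47 astrocytes. At this depth neither gene could be placed in a class.

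Markers of lens cells other than crystallins summed to at most 12.8 CPM in a mouse. Of 9 lens cell markers 6 had a row, with 439 UMIs in all. Lenep gave 197 of these, with the largest part in rods (32.5%), and Bfsp2 gave 101, with the largest part in Müller glia (35.6%). The sum is therefore not a count of lens RNA alone. The lens water channel Mip had 23 UMIs in 23 cells, 1 in each. The summed markers were at 7.01 to 8.01 CPM in control, 7.46 to 9.98 in STZ, 8.44 to 10.0 in ω-3 and 9.18 to 12.8 in ω-6 mice. The ranges of control and STZ mice overlapped, and those of both diets lay above that of control mice. Lgsn, a lens protein of the glutamine synthetase family, had 27 of its 28 UMIs in horizontal cells (72.4 CPM, 47.7 to 105), and was seen in 12 of 31 of them.

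The comparison of STZ with control mice asks how hyperglycemia in the newborn bears on these genes. Over all cells Crybb3 was at 12.2, 28.4 and 11.3 CPM in the control mice and at 3.33, 6.63 and 3.73 CPM in the STZ mice. The groups did not overlap, and control replicate 2 stood above the other control mice. Crybb3 fell by 2.19 on the log2 scale (SE 0.42, edgeR's quasi-likelihood test, adjusted p = 0.00126). Without control replicate 2 it fell by 1.66 (adjusted p = 0.00301 by edgeR). Cryab was at 97.3, 64.3 and 92.9 CPM in control and at 79.2, 65.9 and 50.5 CPM in STZ mice, groups that overlapped. Cryab fell by 0.64 (SE 0.20, adjusted p = 0.0217 by edgeR), a call that was lost when any of 4 mice was left out. The change was then -0.54 without control replicate 1, -0.55 without control replicate 3, -0.59 without STZ replicate 2 and -0.47 without STZ replicate 3, with adjusted p from 0.0587 to 0.102 by edgeR.

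Both crystallins that passed the filter on low counts were thus lower in STZ, and the other 4 of the 6 were too low to test. Rods gave 9.21% to 14.2% of all UMIs in control and 24.4% to 30.97% in STZ mice, and amacrine cells 26.0% to 40.2% and 28.5% to 33.8%. The part of this makeup in the result was not tested. Of all 15964 genes tested 48.1% were called in this comparison and 23.4% were called lower, so a call is a weak mark here. The scaling moved the median of all genes by 0.26 between library totals and the TMM method, which sets most genes near 0, and with library totals the change of Cryab was -0.38 (adjusted p = 0.119 by edgeR) and it was not called. Over all cells, fewer cells of a type and less RNA per cell cannot be told apart.

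Within amacrine cells the difference in Crybb3 was as large. Crybb3 was at 31.7, 63.0 and 42.2 CPM in control mice, from 32, 65 and 37 UMIs, and at 10.6, 17.3 and 9.93 CPM in STZ mice, from 10, 15 and 10 UMIs. The groups did not overlap. Crybb3 fell by 2.21 (SE 0.35, edgeR's quasi-likelihood test, adjusted p = 2.53e-04), where 38.8% of 11315 genes were called and 20.5% were called lower. In the cluster with Gad1 and Cartpt alone it fell by 2.17 (adjusted p = 5.23e-04 by edgeR). This fit was added after the data were seen.

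In that cluster Crybb3 was at 57.2, 136 and 87.9 CPM in control and at 23.7, 31.6 and 20.1 CPM in STZ mice. Counted without regard to depth, 8 of 100, 7 of 87 and 8 of 102 control cells had a UMI, with a mean of 3.88, 9.29 and 4.63 UMIs in those cells. In STZ mice 5 of 121, 4 of 115 and 5 of 142 did, with a mean of 2.00, 3.75 and 2.00. The cluster held 422333, 474069 and 497905 UMIs in all in the STZ mice and 541975, 478151 and 420843 in the control mice. Over the cell numbers given, these are fewer UMIs per cell in the STZ mice, although STZ replicate 2 and control replicate 3 were close. The counts per cell are therefore not a comparison at equal depth. Maf did not show this order. In the cluster Maf was at 264, 261 and 105 CPM in control and 173, 281 and 293 CPM in STZ mice, and over all amacrine cells its change of -0.11 was not called and is smaller than the 0.37 to which library totals move the median of all genes. Among cells with 5 or more Maf UMIs, Crybb3 was at 404, 941 and 771 CPM in control mice (8, 8 and 4 cells) and at 166, 437 and 171 CPM in STZ mice (6, 7 and 11 cells), with 1 STZ mouse above the lowest control mouse. The summed rod markers in amacrine cells, a measure of free rod RNA, were at 358 to 425 CPM in control and 656 to 978 CPM in STZ mice, and their part in the result was not tested.

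Cryab in Müller glia was at 938, 913 and 745 CPM in control and at 725, 809 and 581 CPM in STZ mice, so that 1 STZ mouse lay above the lowest control mouse. The difference of -0.41 (SE 0.17) had an unadjusted p of 0.0306 and an adjusted p of 0.137 by edgeR's quasi-likelihood test, and was not called, where 10.8% of 4855 genes were called and 5.03% were called lower. The rod markers in Müller glia were at 269.6 to 514 CPM in control and 763 to 2225 CPM in STZ mice, and their part was not tested. The number of Müller cells with Cryab was 49 of 76, 34 of 44 and 85 of 143 in control mice and 89 of 155, 55 of 98 and 63 of 124 in STZ mice. Müller glia gave 6.36% to 11.5% of all UMIs in control and 7.31% to 9.64% in STZ mice. Crym was at 4350, 4645 and 4217 CPM in the control Müller glia and at 2978, 3447 and 3411 CPM in STZ, groups that did not overlap, with a difference of -0.55 (adjusted p = 0.0871 by edgeR) that was not called.

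**Figure D3:**
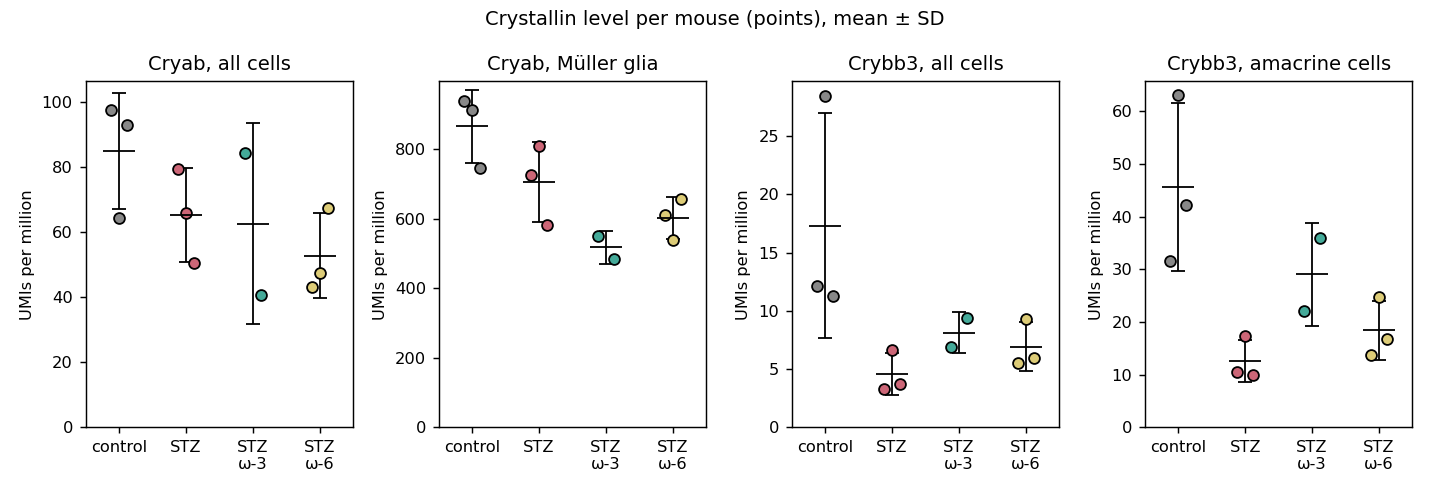
Level per mouse (CPM, points) with the group mean ± SD (bars) of Cryab over all cells and in Müller glia and of Crybb3 over all cells and in amacrine cells, in control, STZ, STZ ω-3 and STZ ω-6 mice. For Crybb3 the control mice lie above the STZ mice on standard feed, though in amacrine cells 1 ω-3 mouse at 36.0 CPM lies above the lowest control mouse, and for Cryab the control and STZ mice overlap in both panels.

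In microglia Crybb1 was at 90.1, 596 and 280.0 CPM in control mice, from 3 to 5 cells each, and at 125, 292 and 0 CPM in STZ mice. These levels rest on 13 and 3 UMIs and overlapped. Cryba4 had 6 UMIs in control and 3 in STZ microglia. In rods, cones and bipolar cells, where 38.1%, 18.8% and 45.3% of the genes tested were called, no crystallin passed the filter in this comparison. Cryab in rods was at 10.4, 4.23 and 6.29 CPM in control and 11.7, 4.79 and 9.27 CPM in STZ mice, which overlapped.

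Among relatives, 6 of 14 further crystallin-named genes could be tested over all cells. Crym was lower by 0.81 (adjusted p = 0.00226) and the oxidoreductase-like Cryzl1 by 0.61 (adjusted p = 0.0122) by edgeR's quasi-likelihood test, none was called higher, and the changes ran from -0.83 for Crybg2 to 0.43 for Crybg3. The 2 of 6 called lower stand beside 23.4% of all genes called lower, and the median of the 6 was -0.71, beside 0.001 over all genes tested. Within classes the median of those tested was -0.08 in rods (1 gene) and 0.50 in bipolar cells (4 genes). It was -0.41 in amacrine cells (4 genes) and -0.06 in Müller glia (2 genes). Of 8 small heat shock relatives 3 were tested, and Hspb6 was higher by 0.97 while Hspb1 and Hspb11 were not called, at -0.37 and -0.35. Of 20 lens genes outside the crystallins 6 were tested, 3 were called higher and none lower, where 24.7% of all genes were called higher. These were Tdrd7, an RNA granule protein, by 2.18, and the homeobox genes Six3 by 0.91 and Prox1 by 0.63, all of which had most of their UMIs in retinal neurons. Rods held 73.7% of Tdrd7 and 46.2% of Hspb6 UMIs, and the level of Hspb6 was highest in cones. Rods gave 9.21% to 14.2% of all UMIs in control and 24.4% to 30.97% in STZ mice. Cones gave 1.36% to 2.75% and 6.69% to 8.30%. The part of this makeup in the changes over all cells was not tested. The change of Maf, -0.20, was not called and is smaller than the shift of 0.26 from the scaling.

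The same lists were also counted within classes, where differences between classes were not tested. In rods 3 of 5 lens genes tested were called. Tdrd7 was higher by 1.18, while Prox1 (-1.86) and Pax6 (-2.46), a homeobox factor of inner retinal neurons, were lower. Amacrine cells held 76.99% of all Pax6 UMIs and bipolar cells 56.2% of all Prox1 UMIs. Bipolar cells gave 29.99% to 33.3% of all UMIs in control and 18.8% to 19.7% in STZ mice. For amacrine cells the ranges were 26.0% to 40.2% and 28.5% to 33.8%. The part of free RNA from these classes in the rod changes was not tested. In cones Hspb6 was called lower at -0.94 and Tdrd7 higher at 1.67. In bipolar cells Prox1 (1.03), Tdrd7 (1.38), Six3 (1.62) and Crybg3 (0.77) were called higher and Cryzl1 (-0.997) lower. In amacrine cells Prox1 (1.32), Six3 (1.23) and Pax6 (0.42) were called higher, and Cryzl1 (-0.71) and Hspb11 (-0.94) lower. In Müller glia, where 10.8% of all genes were called, 2, 1 and 4 list genes were tested and none was called.

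No list gene was called between the diets or between the diet mice and STZ mice. Over all cells the changes of ω-6 against ω-3 ran from -0.39 for Crybg3 to 0.25 for Cryzl1 among crystallin-named genes, from 0.054 for Hspb6 to 0.22 for Hspb11 among small heat shock genes, and from -0.34 for Prox1 to 1.199 for Bfsp1 among lens genes. For either diet against STZ they ran from -0.57 for Cryl1 to 0.87 for Crybg2, from -0.94 for Hspb1 to 0.42 for Hspb8, and from -0.20 for Prox1 to 0.45 for Tdrd7. Of the crystallin-named genes not called anywhere, Cryga had 21 UMIs, Crybg1 21, Crybg2 337, Cryz 911 and Cryl1 278 in all.

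The share of cells with any crystallin UMI was compared after each cell was thinned to 500 UMIs, with shallower cells left out. It was 3.18% ± 0.115 in control (SD, n = 3) and 2.37% ± 0.485 in STZ mice (n = 3), a difference of -0.804 percentage points. In each STZ mouse the share (2.83%, 2.42% and 1.86%) was under that of each control mouse (3.10%, 3.12% and 3.31%). The exact two-sided permutation test gave p = 0.1, the smallest that 3 against 3 mice allow. This share also depends on cell makeup. Over all mice it was 0.452% in rods and 24.7% in Müller glia after the same thinning. Rods were 24.8% to 31.9% of cells in control and 47.2% to 55.2% in STZ mice. The part of this makeup in the difference was not tested. The depth limit left out 21 to 45 cells of each control mouse and 90 to 148 of each STZ mouse. Without thinning the shares were 7.72% and 5.33%, and in rods alone they were 0.732% and 0.409% after thinning. Thinned to 1000 UMIs they were 5.74% and 4.70%, the groups overlapped, and p was 0.2 in the same exact test.

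The comparison of the ω-6 with the ω-3 diet asks whether the fatty acids of the diet bear on these genes in STZ mice. Over all cells 3 crystallins were tested, and 1 each in rods, amacrine cells and Müller glia, and none of these was called. In cones and bipolar cells no crystallin passed the filter. Over all cells Cryab was at 84.3 and 40.7 CPM on the ω-3 diet and at 43.0, 47.4 and 67.5 CPM on the ω-6 diet, and its change of -0.16 (SE 0.29) was smaller than the spread between the ω-3 mice. Crybb3 was at 6.88 and 9.36 CPM on ω-3 and 5.53, 9.31 and 5.97 CPM on ω-6, a change of -0.14 (SE 0.32). Cryba1, tested only here, was at 1.41 and 1.23 CPM against 0.987, 1.93 and 1.84 CPM, a change of 0.35 (SE 0.56). Of 18821 genes 0 (0.0%) were called by edgeR, 1328 had an unadjusted p under 0.05, and DESeq2 called 23.

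In Müller glia Cryab was at 551 and 484 CPM on ω-3 and at 609, 538 and 656 CPM on ω-6, with a change of 0.27 (SE 0.20, adjusted p = 0.994 by edgeR) in overlapping groups. In amacrine cells Crybb3 was at 22.1 and 36.0 CPM on ω-3 and at 13.8, 24.7 and 16.8 CPM on ω-6, with a change of -0.55 (SE 0.33, adjusted p = 0.580 by edgeR). In rods the change of Cryab was -0.11 (SE 0.57), where 0.0159% of 12602 genes were called. edgeR called 0 of 7945 genes in Müller glia, with 283 at an unadjusted p under 0.05 and 2 called by DESeq2, and 0 of 13121 in amacrine cells, with 1298 and 7. The thinned share of cells with a crystallin UMI was 2.27% ± 1.23 (SD, n = 2) on ω-3 and 2.25% ± 0.608 (n = 3) on ω-6, with p = 1.0 in the exact two-sided permutation test, which cannot go below 0.2 here.

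The pooled diet mice were compared with the STZ mice on standard feed, which are also the STZ arm of the first comparison. Crybb3 was at 5.53 to 9.36 CPM in the 5 diet mice and at 3.33 to 6.63 CPM in the 3 STZ mice. The change of 0.82 (SE 0.31, unadjusted p = 0.0177) had an adjusted p of 0.257 by edgeR, where 0.263% of 17894 genes were called. The change of Cryab was -0.13 (SE 0.23).

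**Figure D4:**
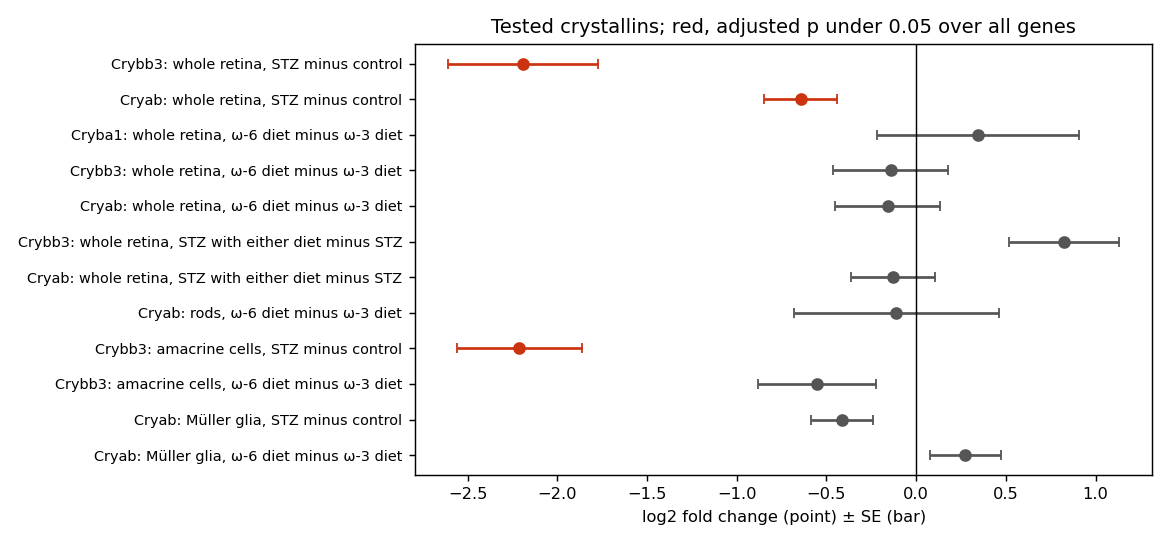
Log2 fold change (horizontal axis, point) with its standard error (bar) of each crystallin that passed the filter on low counts, in each comparison. Crybb3 in STZ against control, over all cells at -2.19 and in amacrine cells at -2.21, lies farthest from 0, and Cryab over all cells at -0.64 is the only other call.

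Genes whose level per mouse was most like that of the summed crystallins were sought over all 11 mice, with each group centered on its mean. Of 14860 genes with 200 or more UMIs, the closest included D8Ertd738e (r = 0.95), Srsf6 (r = 0.94), Gm37509 (r = 0.93) and Six3os1 (r = 0.92). The sum is mostly Cryab, all values share library depth and cell makeup, and the order is a description.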

How the data were processed

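Retinal cells of 11 mice were profiled by inDrop. The authors deposited raw UMI counts per gene and cell, made in bcbio-nextgen 1.2.4-76d5c4b with umis and Rapmap on GRCm38 transcripts after barcodes with fewer than 500 reads were removed. Cells with more than 300 genes were kept, 20033 of 20067. Clustering used Seurat 5.3.0 (2000 variable genes, 75 principal components, resolution 0.2), and 25 clusters were named from markers into 11 classes (6 of 9 rod clusters without such a marker in their top 10 genes). Counts were summed per mouse and class and tested with edgeR 4.0.16 in R 4.3.3 (quasi-likelihood, TMM, filterByExpr, two-sided, Benjamini-Hochberg over all genes tested, threshold 0.05), the script being tested on simulated data first. The study's own methods tested cells, which are not replicates, so the mouse was the unit here. Classes needed 10 cells in each mouse. Shares of cells were compared by exact permutation over mice. Intervals cover counting error only, and p-values measure the spread between mice of few litters.

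The members, marker sets and lists (14 further crystallin-named genes, 8 small heat shock genes, 20 lens genes) were chosen with earlier results of these data known. The text names the 9 members, list genes that were called, the lowest and highest change of a list over all cells, and genes said to be picked after their values were seen. Alternatives were DESeq2 1.42.0, other scalings, no filter, more than 500 genes per cell, removal of the 5% of cells ranked highest by Scrublet (scanpy 1.11.5), clustering without lens genes, a replicate block and leaving out each mouse. Library totals, the amacrine subsets and removal of the cell richest in Crybb3 were added after the data were seen. Values of a few genes are not reported here.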

Additional observations from a re-analysis of the deposited data

How the results depend on the processing

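Crybb3 stayed called in STZ against control in every alternative run over all cells, and in amacrine cells in each one that kept the cluster with Gad1 and Cartpt. One of these, without the cell richest in Crybb3 in each mouse (-2.44 and -2.60), picks cells by the value tested and takes a larger share of the UMIs of some STZ mice, so it lends no support. Leaving out a mouse gave changes from -2.47 to -1.66 over all cells and from -2.47 to -1.91 in amacrine cells. Without that cluster 0 crystallins were called in amacrine cells, since Crybb3 was then too low, and with the cluster alone 2361 genes were called in place of 4391. Over all cells the 2 crystallins called became 1 with library totals, and 1 to 2 when a mouse was left out, Cryab being the one lost. Library totals moved the share of called genes that were higher from 51.4% to 70.6% over all cells, from 47.1% to 74.3% in amacrine cells and from 53.6% to 72.9% in Müller glia.

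For ω-6 against ω-3 over all cells DESeq2 called 23 genes in place of 0, the replicate block 75, and leaving out a mouse 0 to 2. In rods the 2 genes called became 45 by DESeq2, 0 with library totals, 159 without the filter, 69 with the replicate block, 0 in cells with more than 500 genes and 0 to 17 when a mouse was left out. In cones 0 became 2, 12 and 22 by DESeq2, without the filter and with the replicate block, and 0 to 3 without a mouse. In bipolar cells these were 2, 18 and 17. In amacrine cells they were 7, 139 and 60, and 0 to 5 without a mouse. In Müller glia they were 2, 9 and 10, and 0 to 4. For either diet against STZ the 47 genes called became 292 by DESeq2, 98 with library totals, 153 in cells with more than 500 genes and 1 to 116 without a mouse. For STZ against control, leaving out a mouse gave 276 to 649 genes in cones (587 with all mice) and 265 to 420 in Müller glia (526), where DESeq2 called 309. The cause of these shifts was not tested.

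None of the changes that turned sign had been called. For ω-6 against ω-3 over all cells, leaving out a mouse gave -0.41 to 0.12 for Crybb3 (0.12 without ω-3 replicate 2, 0.0074 without ω-6 replicate 1) and -0.58 to 0.43 for Cryab (0.43 without ω-3 replicate 1), and in rods -0.80 to 0.93 for Cryab (0.93 without ω-3 replicate 1, 0.048 without ω-6 replicate 2). For either diet against STZ Cryab ran from -0.30 to 0.076, the last without STZ replicate 1. The diet difference in the share of cells with a crystallin UMI ran from -0.893 to 0.842 percentage points, with 0.256 and 0.0147 without ω-6 replicates 1 and 2.

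Same-numbered control and STZ mice deviated together with r = -0.024, 0.14 and 0.20, where other pairs ran from -0.24 to 0.11. With n = 3 in each group these values cannot show whether the numbers pair the mice. The diet mice give 2 pairs (0.22 and 0.44). With 2 ω-3 mice each r is fixed as the negative of that with the other ω-3 mouse, so it cannot show pairing. With the replicate block Crybb3 changed by -2.13 over all cells and -2.19 in amacrine cells, and the block changed no crystallin call. Removing cells with over 5% crystallin UMIs was not run because no cell reached that share. Depth limited Cryaa, Cryba1, Cryba4 and Crybb1, which were too low to test in STZ against control.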
